A study of Mus musculus with 5 samples.

Results

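WT1 binding was mapped by CUT&RUN in the mouse line M15 and in a derivative whose KTS isoforms of WT1 were genome edited. The account follows the regions that ranked high in both libraries of the edited line and in neither library of M15. Each of the 4 WT1 peak lists was cut to its 6440 strongest peaks by max signal, as many as the shortest list holds, and the cuts were merged where peaks shared at least 1 bp. Of the 14667 merged regions, 291 (1.98%) held a peak of both KTSminus cuts and no peak of either M15 cut. Max signal is the highest coverage that the peak caller recorded inside a peak, in each library's own units, and it chose these regions, so their high rank in KTSminus and their absence from the M15 cuts are the rule and not a result.

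M15 cells are mouse mesonephric epithelium transformed with the large T antigen of polyoma virus. They were profiled with an anti-WT1 antibody in 2 replicates (M15). The line that the labels call KTSminus, also written KTS-, shares that origin and transformation and was profiled with the same antibody in 2 replicates. The labels do not say how many clones the edited line comes from, which allele was changed, or whether replicates were separate cultures, so the spread between replicates may be technical. An IgG library of M15 cells belongs to the series and was not analysed here.

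WT1 is a zinc-finger transcription factor needed for the formation of the kidney and the gonads, and M15 cells come from the mesonephros, where it is normally made. In CUT&RUN an antibody bound to chromatin draws in a nuclease that releases the DNA beside the protein, so that a site appears as a pile of fragments over the open background. Alternative splicing places lysine, threonine and serine between the last zinc fingers of WT1 or leaves them out. The form without these residues binds GC-rich DNA sites, and the form with them is better known for its links to RNA. No genome or annotation of mm9, the build of the lists, was used here, so sequences and genes at these regions are not given.

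The lists that were cut differed widely in length. The cut kept 100% of the 6440 peaks of M15 replicate 1, 10.6% of the 60925 peaks of M15 replicate 2, 2.07% of the 310999 peaks of KTSminus replicate 1 and 2.63% of the 244428 peaks of KTSminus replicate 2. The M15 replicate 1 cut is therefore its whole list, and nothing weaker can be looked up in it. The lowest max signal in the cut was 7 and 12 in M15 replicates 1 and 2, and 25 and 40 in KTSminus replicates 1 and 2. The lists give no read counts, and sequencing depth is therefore unknown.

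The 291 regions were made of 302 peaks of KTSminus replicate 1 and 343 peaks of KTSminus replicate 2, and 247 of them held exactly 1 peak of each. Their best max signal ranged from 25 to 56 with a median of 29 in KTSminus replicate 1, and from 40 to 169 with a median of 46 in replicate 2. The median rank was 2586 and 3214, and 92 regions (31.6%) ranked in the upper 50% of both cuts. Only 6 regions (2.06%) were among the first 1000 peaks of both lists. For comparison, cut peaks in the 1275 regions found in all 4 cuts had a median rank of 1273 in KTSminus replicate 1 and 1357 in replicate 2, against 2632 and 3480 for the cut peaks of the 291 regions. These ranks are what the rule used and are given as a description.

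The best-ranked region by mean rank lay on chromosome 10 from 118380711 to 118389115. Its max signal was 51 in KTSminus replicate 1 (rank 226) and 106 in replicate 2 (rank 130), and the maxima of the replicates were 3.0 bp apart. M15 replicate 1 listed no peak there, and the best M15 replicate 2 peak had a max signal of 9 (rank 14328). Second came chromosome 2 from 146337377 to 146339767, where KTSminus replicates 1 and 2 peaked at 47 and 106, and its M15 replicate 2 peak reached 11. On chromosome 5, the region from 29640661 to 29643221 had the highest max signal of all 291 in replicate 2, at 169 (rank 23), but reached only 36 (rank 1003) in replicate 1. Its M15 replicate 2 peak had a max signal of 9. These 3 regions each carried at least 1 M15 replicate 2 peak, ranked below the cut of that list. In each, the maxima of the KTSminus replicates fell within 51.5 bp of each other.

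On chromosome X, a region of 23201 bp from 82057270 to 82080470 reached 47 and 66 in KTSminus replicates 1 and 2, and 8 M15 replicate 2 peaks lay within it, the best at 12 (rank 6678). On chromosome 1, the region from 128697690 to 128699483 reached 37 and 73, with an M15 replicate 2 peak of 9. The other chromosome 1 region, from 87445340 to 87451052, reached 39 and 62, with an M15 replicate 2 peak of 11. Both chromosome 1 regions lay close to an M15 cut peak, 852 and 810 bp away. Of the remaining regions of best mean rank, the one on chromosome 10 from 123507269 to 123551087 was 43819 bp wide and reached 56 and 55, but the maxima of the replicates were 18635 bp apart. The one on chromosome 10 from 117225399 to 117232103 reached 52 and 58 and held no M15 peak. Among the 8 regions of best mean rank, the widest, of 23201 and 43819 bp, had maxima 1501 and 18635 bp apart. In the others, 1794 to 8405 bp wide, the maxima were at most 51.5 bp apart.

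At the edge of the rule, regions just inside and just outside were tied in max signal. The regions just inside were on chromosome 14 from 48908188 to 48910360 (25 in KTSminus replicate 1, rank 6431), chromosome X from 3230467 to 3235540 (40 in replicate 2, rank 6419), chromosome 4 from 116862034 to 116864689 (25 in replicate 1, rank 6418) and chromosome 16 from 91543633 to 91547465 (25 in replicate 1, rank 6406). Just outside, the missing KTSminus peak had a max signal of 25 in replicate 1 on chromosome X from 15746888 to 15748322 (rank 6453) and on chromosome 1 from 87544046 to 87544733 (rank 6459). It had 40 in replicate 2 on chromosome 10 from 123805930 to 123816984 (rank 6459) and on chromosome 4 from 134258967 to 134261299 (rank 6461). Tied values, 1709 at 25 in replicate 1 and 988 at 40 in replicate 2, were parted by total signal.

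The regions were concentrated on chromosomes X and 10. Chromosome X held 107 of the 291 (36.8%, 95% Wilson interval 31.4 to 42.4), against 8.56% of all merged regions, and chromosome 10 held 62 (21.3%). Together they held 169 regions (58.1%). Chromosome 6 followed with 26 (8.93%), chromosome 1 with 13 and chromosome 19 with 12, chromosome 12 held none, and the others held 1 to 9. Of the regions in all 4 cuts 4.47% lay on chromosome X and 6.27% on chromosome 10, and of the 1551 regions in both M15 cuts only 1.35% and 2.13% did. Chromosome X held 11.7% and 12.7% of the KTSminus cuts, and 3.17% and 7.95% of the M15 cuts, of replicates 1 and 2, so its share of the 291 regions exceeded its share of each cut. Chromosome 10 held 8.21% and 6.85% of the KTSminus cuts of replicates 1 and 2, also below its share of the 291 regions. Chromosome 6 held 13.8% and 10.2% of these cuts and 11.4% of the regions in all 4 cuts. Its 8.93% of the 291 regions was thus lower than each of those shares. Without KTSminus replicate 1 or without KTSminus replicate 2, when a region needs only the other library's cut, the chromosome X share was 16.1% and 13.6%.

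**Figure D1:**
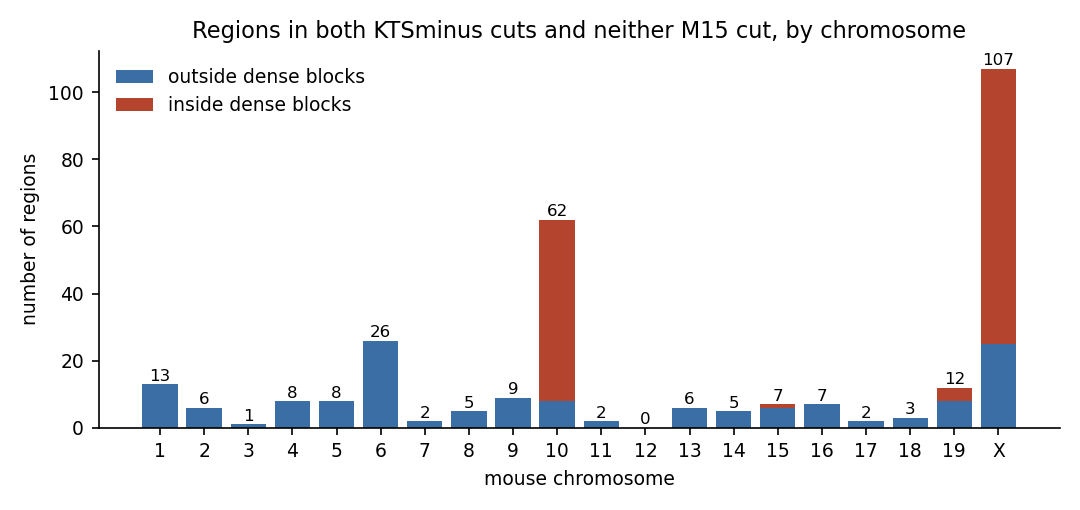
Number of the 291 regions on each mouse chromosome, with bars split into regions inside (red) and outside (blue) the 7 dense blocks. Chromosomes X and 10 hold 107 and 62 regions, most of them inside dense blocks, while all 26 regions on chromosome 6 lie outside.

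Within chromosomes X and 10, most regions sat in a few segments where peaks of the full KTSminus lists covered much of the sequence. Such a dense block is a run of 3 or more 1 Mb bins whose signal sum, in 3 or all 4 of the libraries, reached 4 times the median of that library's bins with a peak, a definition chosen with earlier results known. The 7 blocks make up 49 Mb. They held 141 of the 291 regions (48.5%, interval 42.8 to 54.2), against 10.5% of all merged regions, 13.3% of regions in all 4 cuts and 3.68% of regions in both M15 cuts only. Blocks are defined from the same signal that ranks the peaks, so these shares describe the regions and test nothing. DNA copy number was not measured, and its part in the concentration was not tested.

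The chromosome 10 block from 118000001 to 128000000 held 54 of the regions, or 5.40 per Mb. The chromosome X block from 12000001 to 20000000 held 49 (6.12 per Mb), the one from 82000001 to 85000000 held 16 (5.33 per Mb) and the one from 154000001 to 167000000 held 17 (1.31 per Mb). The chromosome 15 and 19 blocks held 1 to 3 each. KTSminus replicate 1 peaks covered 54.2% to 61.0% of them, against 61.6% to 83.4% of the chromosome X and 10 blocks. Replicate 2 peaks covered 19.7% to 25.7% of them, against 37.8% to 68.9%. In the chromosome X block from 12000001 to 20000000, peaks covered 71.9% and 53.8% of the sequence in KTSminus replicates 1 and 2, 30.3% in M15 replicate 2 and 0.971% in M15 replicate 1. The block with most of these regions per Mb was thus also covered by M15 replicate 2 peaks, and less by M15 replicate 1. Over all chromosomes, however, the full lists covered 12.3 and 71.9 Mb in M15 replicates 1 and 2. They covered 434 and 199 Mb in KTSminus replicates 1 and 2, so these percents are not comparable without the list sizes. It held 8 regions found in all 4 cuts and none found in both M15 cuts only. In single bins of 1 Mb, the most regions were 15, on chromosome X from 16000001 to 17000000, and 14, from 13000001 to 14000000. Outside dense blocks the fullest bin, on chromosome 1 from 87000001 to 88000000, held 5 regions, and the bin on chromosome 13 from 66000001 to 67000000 held 4.

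Regions inside and outside dense blocks differed in shape. The 141 inside had a median width of 11889 bp (lowest 892, highest 168527), and 83 of them (58.9%) were 10 kb or wider. The 150 outside had a median width of 3494 bp (463 to 42354), and 13 (8.67%) were 10 kb or wider. Max signal, whose lower end the rule fixes in both sets, had medians of 29 and 45 in KTSminus replicates 1 and 2 inside, and of 30 and 46 outside. Mean coverage inside the best peak had medians of 8.17 and 12.4 inside and of 8.51 and 14.0 outside. The difference in width was larger in KTSminus replicate 1, whose best peaks had a median width of 11685 bp inside and 2949 bp outside, against 2119 and 1604 bp in replicate 2. Its peak was the wider one in 250 of the 291 regions. The widest region, 168527 bp on chromosome X from 13778268 to 13946794, joined 2 peaks of replicate 1 and 7 of replicate 2, and held 43 M15 replicate 2 peaks.

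How many regions would meet the rule if one KTSminus cut lay somewhere else in the same neighbourhood was measured by moving it 20 to 100 kb in steps of 20 kb in both directions, which gives 10 shifts per library. With KTSminus replicate 1 moved, 171 to 211 regions met the rule (mean 191), and with replicate 2 moved, 171 to 229 did (mean 205). The 291 observed were 1.52 and 1.42 times these means, and above the highest shifted count. The excess was small inside dense blocks: 141 regions were observed there, against 117 to 136 (mean 126) with replicate 1 moved and 119 to 145 (mean 133) with replicate 2 moved. Outside them 150 were observed, against 49 to 87 (mean 65.5) and 51 to 90 (mean 71.9), or 2.29 and 2.09 times the means. Most of the excess over the shifted means thus lay outside dense blocks. Chromosome X regions numbered 107, against 76 to 102 and 73 to 107 after the shifts, and regions on chromosomes other than X, 10 and 6 numbered 96, against 28 to 53 and 32 to 50. These ranges are descriptions of 10 fixed shifts and carry no p-value.

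**Figure D2:**
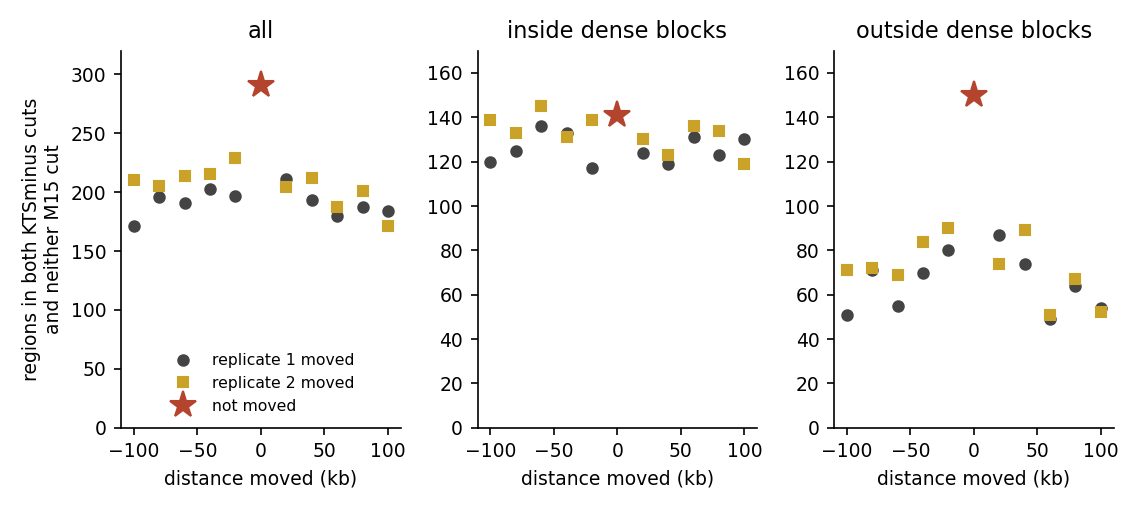
Number of regions in both KTSminus cuts and neither M15 cut (vertical axis) when one KTSminus cut is moved by the distance on the horizontal axis in kb, for replicate 1 (grey circles) and replicate 2 (yellow squares), with the unmoved count as a star. The star at 291 lies above all shifted counts. Inside dense blocks 1 of the 20 shifted counts, 145, exceeds the star at 141, and outside the star at 150 lies above the highest, 90.

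Among the 6 pairs of libraries, the KTSminus pair had the lowest ratio to its shifts, counting only regions in that pair and in no other cut. Of the 1879 regions in both KTSminus cuts, only the 291 without an M15 cut peak entered its ratio. Regions shared with the other line are left out of each count. These ratios therefore cannot show how well the replicates of a line coincide. Regions in both M15 cuts only numbered 1551, against a mean of 103 with M15 replicate 1 moved, a ratio of 15. Pairs of 1 library from each line gave 122 to 251 regions in that pair only and ratios of 1.63 to 5.49, against 1.52 for the KTSminus pair. The number of KTSminus regions also depends on the libraries left in: without M15 replicate 2 it was 517, without M15 replicate 1 it was 383, and without KTSminus replicate 1 or 2 it was 3490 and 3886. It was 690 when peaks were ranked by total signal, 82 when the KTSminus peaks had to overlap by 50% in both directions, and 101 when merging used the stretches of highest signal alone. Of the 291 regions, 100, 82 and 33 were found again in these settings, so the first and last gave largely different regions.

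Most of the regions were not empty in M15. No region overlapped an M15 replicate 1 peak, as its cut is its whole list, but 245 of 291 (84.2%, interval 79.6 to 87.9) overlapped a peak in the full M15 replicate 2 list. The same overlap was seen in 27.8% of all 6852 regions with a peak in at least 1 KTSminus cut and in no M15 cut. Without KTSminus replicate 1 or 2 the share was 27.1% and 34.4%, and it was 17.8% when peaks were reduced to their stretches of highest signal. The best M15 replicate 2 peak in these 245 regions had a rank of 6444 to 56532, with a median of 13816, which is 22.7% of the way down that list. Its max signal ranged from 5 to 12 with a median of 9, against a median of 7 in the whole list, and 198 of the 245 (80.8%) lay above 7. These values are of the best peak in each region, and 141 regions held more than 1 M15 replicate 2 peak, which raises the best rank.

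Some of the 245 regions missed the M15 replicate 2 cut narrowly, judged by the best peak in each, though the median best rank of 13816 lay beyond 2 cut lengths. These ranks were not set beside those of shifted lists or of other KTSminus regions. In 26 regions the M15 replicate 2 peak had a max signal of 12, equal to the lowest value in its cut, and was left out only by the order of ties, since 423 of the 1589 peaks at 12 were kept. A further 50 regions had an M15 replicate 2 maximum of 11 and 41 had one of 10. By rank, 111 of the 245 regions (45.3%) fell between 1 and 2 cut lengths, 58 between 2 and 3, 27 between 3 and 4, and 49 lower. The closest to the cut were on chromosome 4 from 145023085 to 145040675 (rank 6444), chromosome X from 4797794 to 4801823 (rank 6466), the widest region on chromosome X (rank 6468) and chromosome X from 162900734 to 162918480 (rank 6518). In KTSminus these 4 reached 33, 33, 40 and 29 in replicate 1 and 45, 41, 56 and 44 in replicate 2. By total signal, the M15 replicate 2 peak of 68 regions (27.8% of the 245) would have been inside the M15 cut. With the M15 replicate 2 list taken at 2 cut lengths, 180 regions met the rule.

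**Figure D3:**
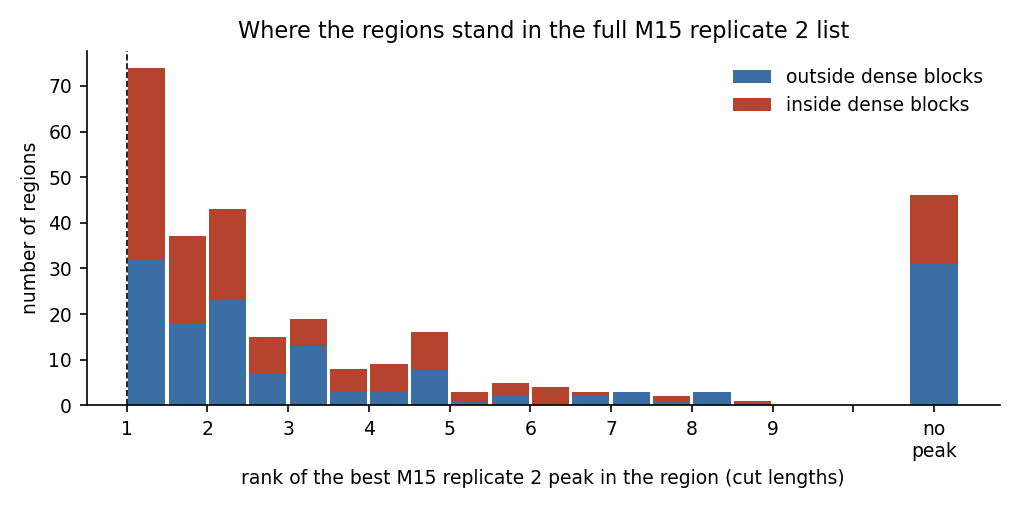
Rank of the best M15 replicate 2 peak in each region, in units of the cut length of 6440 peaks (horizontal axis, dashed line at the cut), against the number of regions, inside (red) and outside (blue) dense blocks. The counts fall away from the cut, with 111 regions between 1 and 2 cut lengths, and the bar at the right holds the 46 regions without an M15 replicate 2 peak.

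Wide regions meet peaks more easily, so the overlap was set beside the same shifts applied to the M15 replicate 2 list. Over all regions the shifted list overlapped 53.6% to 60.8% (mean 57.9%), against 84.2% observed. Inside dense blocks the shifted lists gave 81.6% to 90.8%, and the observed 126 of 141 (89.4%) lay in that range. Outside, 119 of 150 (79.3%, interval 72.2 to 85.0) were overlapped, against 22.7% to 35.3% after shifts, 2.66 times the mean. A narrower measure asked whether an M15 replicate 2 peak covered the exact position of the KTSminus maximum. Outside dense blocks 59.3% of the KTSminus replicate 1 maxima and 58.0% of the replicate 2 maxima were covered, against 6% to 13.3% and 5.33% to 14.0% after shifts. Inside, 28.4% and 38.3% were covered, against 22.0% to 34.0% and 24.8% to 34.8%. Outside the blocks, then, M15 replicate 2 peaks coincided with these regions more often than in any of the shifts, and inside the blocks the shares lay within or just above the shifted range.

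At matched width, regions found in both KTSminus cuts overlapped M15 replicate 2 more often than regions found in 1 KTSminus cut in the classes from 1 to 5 kb outside the blocks. Among regions of 1 to 2 kb, 22 of 27 (81.5%) did, against 19.6% of 877 in KTSminus replicate 1 only and 39.7% of 451 in replicate 2 only. Among regions of 2 to 5 kb, 58 of 69 (84.1%) did, against 43.3% of 780 and 62.9% of 124, and among those of 5 to 10 kb, 25 of 31 (80.6%) did, against 67.1% of 161 and 4 of 4. Inside dense blocks the order varied with width. Regions of 2 to 5 kb gave 11 of 20 (55.0%), against 57.5% of 181 and 74.1% of 58. Regions of 5 to 10 kb gave 32 of 37 (86.5%), against 73.5% of 155 in replicate 1 only, and regions of 10 kb or more gave 82 of 83 (98.8%), against 89.7% of 107. Below 1 kb outside the blocks, 1 of 10 did (10.0%), against 6.54% of 1177 and 9.14% of 2167. Neighbouring regions are not independent and regions are not replicates, so these shares were not tested.

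**Figure D4:**
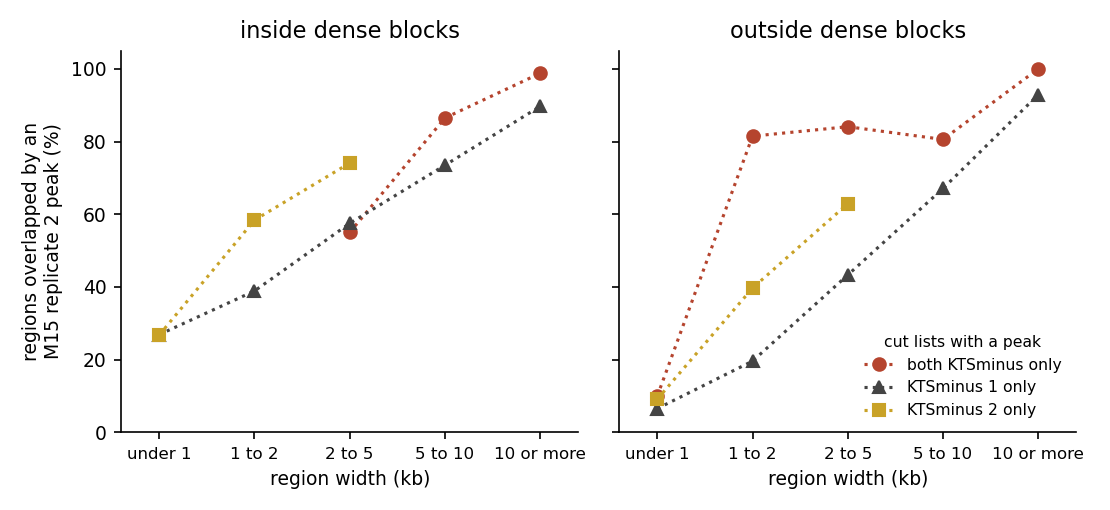
Percent of regions overlapped by a peak of the full M15 replicate 2 list (vertical axis) by region width in kb (horizontal axis), for regions in both KTSminus cuts (red circles) and in the cut of KTSminus replicate 1 (grey triangles) or replicate 2 (yellow squares) alone, in classes of at least 10 regions. Outside dense blocks the red points at 1 to 2 and 2 to 5 kb, 81.5% and 84.1%, lie above the others. Inside, the red point lies lowest at 2 to 5 kb and above KTSminus replicate 1 alone from 5 kb; the red points outside the blocks under 1 kb and at 10 kb or more rest on 10 and 13 regions.

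The rule did not use where inside a region the signal peaks. The stretches of highest signal of the KTSminus replicates overlapped in 33 of 291 regions (11.3%, interval 8.19 to 15.5), against 13.5% of all 1879 regions in both KTSminus cuts. After the shifts, 4 to 7 regions (2.09% to 3.57%) with replicate 1 moved and 5 to 9 (2.38% to 4.21%) with replicate 2 moved had overlapping stretches. These stretches are short, with medians of 10 bp in replicate 1 and 12 bp in replicate 2, so the distance between their middles was also taken. It had a median of 865 bp and was at most 200 bp in 91 regions (31.3%), against 7 to 18 and 9 to 21 regions after the shifts. The shifted totals were smaller, at 171 to 211 regions with replicate 1 moved and 171 to 229 with replicate 2 moved. Of these 91 regions 83 lay outside dense blocks.

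Outside the blocks, the maxima of the replicates were a median of 161 bp apart, and in 83 of 150 regions (55.3%, interval 47.3 to 63.1) they lay within 200 bp. That was close to the 60.6% among regions in all 4 cuts outside the blocks, whose KTSminus maxima were a median of 124 bp apart. Inside the blocks the median was 2931 bp and 8 of 141 regions (5.67%, interval 2.90 to 10.8) had maxima within 200 bp, against 44.1% of the regions in all 4 cuts inside blocks, with a median of 255 bp. Wide regions leave more room between maxima, and 15 regions had a replicate 1 stretch of 1 kb or more, for which a middle means little. The M15 replicates placed their maxima closer together, a median of 61.5 bp apart in the regions of both M15 cuts only, where 81.7% lay within 200 bp. Those regions were narrower, with a median width of 1883 bp against 5923 bp. In the same 1275 regions of all 4 cuts, the median was 54.0 bp for the M15 pair and 132 bp for the KTSminus pair. There was no clean split into coinciding and separate maxima: outside the blocks, 33 of the 150 regions (22.0%) had maxima over 1000 bp apart, against 108 of 141 (76.6%) inside.

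**Figure D5:**
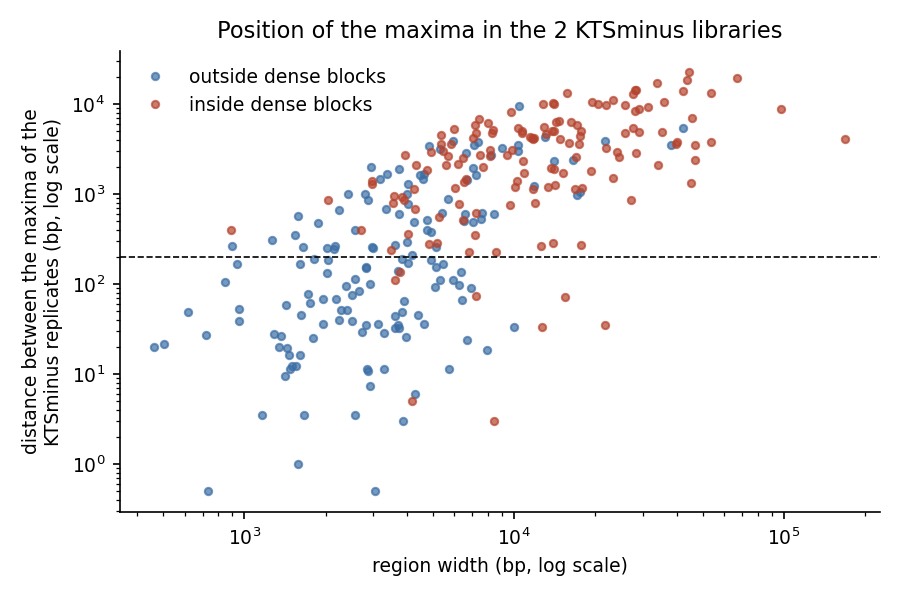
Distance in bp between the maxima of KTSminus replicates 1 and 2 (vertical axis, log scale, dashed line at 200 bp) against region width in bp (horizontal axis, log scale), 1 point per region, inside (red) and outside (blue) dense blocks. Of the 91 points at or under the line 83 are outside dense blocks, and most of the red points lie above 1000 bp.

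The 91 regions with maxima within 200 bp, a set chosen after the values were seen, also tended to carry M15 replicate 2 signal. M15 replicate 2 peaks overlapped 67 of them (73.6%), against 17.6% to 30.8% after shifts, and covered the KTSminus replicate 1 maximum in 59 (64.8%), against 5.49% to 12.1%.

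No M15 peak overlapped 46 of the 291 regions, 15 inside dense blocks and 31 outside. They had a median width of 3461 bp (463 to 10867), and median max signals of 28 and 45 in KTSminus replicates 1 and 2, close to those of all 291. The nearest M15 replicate 2 peak was a median of 3352 bp away (209 to 522876). The first by mean rank was the chromosome 10 region from 117225399 to 117232103, 29460 bp from an M15 replicate 2 peak. The second, on chromosome X from 4780314 to 4785236, reached 54 and 52 in KTSminus replicates 1 and 2, and an M15 replicate 2 peak began 485 bp away. The region on chromosome 18 from 14261623 to 14262085 stood farthest from any M15 peak among the 6 of best rank, 522876 bp from replicate 2 and 885422 bp from replicate 1. Its max signal was 54 in replicate 1 (rank 202) and 47 in replicate 2 (rank 3072), and the maxima were 20 bp apart. The region was only 463 bp wide and ranked 60218 and 64325 by total signal in KTSminus replicates 1 and 2.

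On chromosome 8 from 14289253 to 14289986 the maxima of 34 and 53 were 0.5 bp apart, with M15 replicate 1 and 2 peaks 16461 and 46776 bp away. This region was 734 bp wide and ranked 94953 and 42394 by total signal in KTSminus replicates 1 and 2. On chromosome 1 from 188284566 to 188286611, values of 32 and 54 lay 15322 bp from an M15 replicate 2 peak. On chromosome 6 from 12759325 to 12765247, values of 29 and 63 lay 27145 bp from one. In all 6 regions the maxima of the KTSminus replicates were within 381 bp.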

How the data were processed

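WT1 CUT&RUN peak lists of M15 (2 replicates) and KTSminus (2 replicates) were used. SEACR 1.3 (a peak caller), Bowtie2 2.2.6, bedtools 2.23.0, SAMtools 1.3, Picard 2.5.0 and FastQC 0.11.8 are named, with build mm9, per the submitters' processing notes. The deposited lists were called per library and give total and max signal (coverage) per peak as whole numbers, which are the authors' values. The sources used here do not state scaling between libraries, control or threshold, so signal was used only to rank and describe peaks inside a list.

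Peaks were ranked by max signal, with ties broken by total signal, chromosome and start, and cut to 6440. Coordinates are mm9, counted from 1. Named regions are the 8 of best mean rank, the 6 best without an M15 peak, the 4 nearest the M15 replicate 2 cut, the 4 on each side of the KTSminus cut, the fullest bin and the widest region. Intervals are 95% Wilson intervals over regions and cover counting error only. An exact permutation test of 2 libraries against 2 cannot go below p = 0.333, so none was run. The members, blocks and measures were chosen with earlier results of these data known. Planned gene and motif analyses were not run, as the tables at hand belong to GRCm38. Merging was tested on simulated sites too far apart to join, so the joining of neighbouring sites in dense blocks was not tested. Python 3.11.15, numpy 2.4.6, pandas 2.3.3, scipy 1.17.1 and matplotlib 3.10.9 were used.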

Additional observations from a re-analysis of the deposited data

How the results depend on the processing

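Limits were a factor of 1.5 for the count, the 95% interval for shares, and the range given by single shifts for the ratio. Ranking by total signal gave 690 regions, of which 7.10% had overlapping stretches. Of the 291 main regions, 100 were found again under that ranking. A cut to 50% of the length found 92 of the 291 again, and merging only stretches of highest signal found 33. More were found again with a cut of 5000 peaks (207), merging across 1000 bp (238) and without peaks of 10 kb or more (203). All 291 were found again when 1 library was left out. A cut of 5000 peaks gave an M15 replicate 2 overlap of 90.0% and a ratio to shifts of 1.73. A cut to 50% of the length gave 95.5%, 2.16 and a chromosome X share of 30.8%. A 50% reciprocal overlap gave 82 regions, a ratio of 4.08, overlapping stretches in 24.4% and 23.2% on chromosome X. Merging only stretches of highest signal gave 101 regions, 17.8% overlap, a ratio of 10.6 and 11.9% on chromosome X. Merging across 1000 bp gave 31.2% on chromosome X. Without peaks of 10 kb or more the overlap was 75.1%, the ratio 1.98 and the chromosome X share 27.9%. With only the upper 50% of M15 replicate 2 the overlap was 73.5%. Leaving out 1 library gave 383 to 3886 regions, an overlap of 27.1% to 86.4%, ratios of 1.79 to 1.87, overlapping stretches in 11.2% to 16.1% and 13.6% to 35.8% on chromosome X. These alternatives were added after seeing the data: leaving out dense blocks gave 150 regions, 79.3% overlap, a ratio of 2.29, overlapping stretches in 18.7% and 16.7% on chromosome X; M15 replicate 2 at 2 cut lengths gave 180 regions, 74.4% overlap and 25.0% on chromosome X; keeping all its tied peaks moved nothing past the limits. The ratio stayed above 1 in every setting run. No paired analysis was possible because the results come from counts of regions and no test.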

Other observations

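The narrow regions were picked out after their values were seen. Of the 291 regions, 11 were under 1 kb wide, 10 of them outside dense blocks, and 9 of those 10 held no M15 peak in either list. That is near the background: among regions under 1 kb outside blocks in 1 KTSminus cut, M15 replicate 2 overlapped 6.54% (replicate 1) and 9.14% (replicate 2), against 10.0% here. The maxima of the KTSminus replicates lay within 200 bp in 9 of the 11. By max signal they ranked inside both cuts, but by total signal the chromosome 1 region from 93146435 to 93146939 ranked 203541 in KTSminus replicate 1 and 17148 in replicate 2, with maxima of 31 and 49. The chromosome 18 region from 66098435 to 66099053 reached 28 and 56 and ranked 136420 and 24312 by total signal. On chromosome 5 from 136254016 to 136254733, with maxima of 35 and 41, an M15 replicate 2 peak of max signal 7 covered the whole region.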
